A study of Mus musculus with 12 samples.

Results

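Interleukin 21 reporter-positive (GFP+) T follicular helper cells were set against reporter-negative (GFP-) ones from mouse Peyer's patches, the comparison that the series was made for. The 6 arrays of these Tfh cells, 3 of each kind, were taken by their sample titles from 12 arrays in all. The members of the comparison are the 19937 genes that a probe set names with 1 symbol, and 11240 of them were expressed well enough to test. Genes and gene families were described here array by array, because the GFP+ arrays varied more than the rest.

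All mice carried a bacterial artificial chromosome with an IL-21eGFP reporter, so every group shares the transgene, and no group lacks it. CD4+ cells without class II or Epcam on their surface were sorted. GFP+ Tfh are titled CXCR5+PD1+ and GFP+, and GFP- Tfh are CXCR5+PD1+ and GFP-. A further 2 gates, each of 3 arrays of GFP- cells, were CXCR5+PD1- and CXCR5-PD1-. The sorting protocol describes the Tfh gates and the CXCR5-PD1- gate, and the CXCR5+PD1- gate is known from its titles. No treatment, immunisation or age is given in the sources used here. The characteristics of the GFP+ arrays list CXCR5 and PD1 as negative, against their titles and the sorting protocol, and the groups follow the titles. The reporter marks cells by green protein, which is not the cytokine itself. Nothing in the labels ties the replicates to separate mice, and the p-values therefore reflect how far these samples vary, which may be in part technical variation. Xist and the Y-linked Eif2s3y placed replicate 3 of every group as female and replicates 1 and 2 as male. Replicate 3 thus came from other mice than replicates 1 and 2. Whether replicates 1 and 2 came from separate mice is not known.

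T follicular helper cells are CD4+ T cells that enter B cell follicles through the chemokine receptor CXCR5 and help B cells form germinal centres. Interleukin 21 is one of the cytokines by which they give that help, and its gene is switched on through the T cell receptor, calcineurin and NFAT factors. Interleukin 2, acting through a receptor whose high-affinity form needs the alpha chain Il2ra and through STAT5, is known to restrain the Tfh programme. Follicular regulatory T cells, which also carry CXCR5 and PD-1, can lie in the same gate.

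The stretches in front of the genes that the comparison turns on show which of these factors' short motifs lie near the start site. For 4 of 6 genes looked up, RefSeq gives the 250 bases before the annotated start in assembly GRCm38.p6, printed 5′ to 3′ on the gene's own strand. Capitals mark the NFAT core GGAAA or its reverse complement TTTCC. Il2ra is at chr2:11642542-11642791 on the + strand, Itm2a at chrX:107403361-107403610 on the - strand, St8sia6 at chr2:13793521-13793770 on the - strand and Il21 at chr3:37232637-37232886 on the - strand.
Il2ra: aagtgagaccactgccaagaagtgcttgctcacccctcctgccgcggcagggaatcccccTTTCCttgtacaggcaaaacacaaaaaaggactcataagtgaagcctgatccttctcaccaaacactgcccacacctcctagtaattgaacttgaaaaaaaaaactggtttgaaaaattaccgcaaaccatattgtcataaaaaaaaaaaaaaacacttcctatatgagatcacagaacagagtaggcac
Itm2a: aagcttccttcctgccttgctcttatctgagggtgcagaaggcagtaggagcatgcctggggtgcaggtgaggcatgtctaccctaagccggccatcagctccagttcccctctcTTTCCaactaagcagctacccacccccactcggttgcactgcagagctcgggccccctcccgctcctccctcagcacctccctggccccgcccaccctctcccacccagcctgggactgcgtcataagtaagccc
St8sia6: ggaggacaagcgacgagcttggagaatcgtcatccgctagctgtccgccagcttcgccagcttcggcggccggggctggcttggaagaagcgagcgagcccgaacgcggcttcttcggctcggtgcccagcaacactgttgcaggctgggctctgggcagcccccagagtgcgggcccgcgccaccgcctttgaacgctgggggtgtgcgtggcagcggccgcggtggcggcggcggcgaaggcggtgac
Il21: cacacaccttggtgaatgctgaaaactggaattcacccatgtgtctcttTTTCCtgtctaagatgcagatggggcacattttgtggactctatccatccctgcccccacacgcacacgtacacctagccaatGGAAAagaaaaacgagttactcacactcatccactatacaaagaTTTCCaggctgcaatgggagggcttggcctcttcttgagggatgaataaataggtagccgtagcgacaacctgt

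The Il21 stretch holds 3 such cores, at 201, 118 and 74 bases before the start. Il2ra has 1 at 190 bases, Itm2a 1 at 135 bases and St8sia6 has 0. The core is common, in 55.6% of the 32851 RefSeq promoter stretches of the same length. The STAT motif TTCNNNGAA, which lies in 7.02% of all stretches, was in 0 of the 4. The TCF motif CTTTGA (13.8% of all) lies once in St8sia6, 62 bases before the start, and the E-box CAGGTG (17.2% of all) once in Itm2a, 186 bases before it. The FOXO motif GTAAACA (3.17% of all) was in 0 of the 4. Both strands were searched. A match says only that these letters are there. The stretches also differ in base composition, with 42.4% G and C in Il2ra, 47.6% in Il21, 62.8% in Itm2a and 70.8% in St8sia6.

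The gate markers come first, because they check the labels. Values are log2 expression after RMA, and array values are always given for replicates 1, 2 and 3 in that order. Il21 stood at 10.82, 10.73 and 10.25 in GFP+ Tfh, against 10.17, 10.15 and 9.57 in GFP- Tfh. Every GFP+ array lay above every GFP- array, but GFP- Tfh also held much more Il21 RNA than the PD1- gates, which lay at 6.50 ± 1.11 and 6.64 ± 1.09. The difference between the Tfh gates was 0.63 ± 0.56 (SE, limma adjusted p = 0.824), or ± 0.23 when only these 6 arrays set the spread. Within each replicate number the difference was 0.65, 0.58 and 0.67. An exact two-sided permutation test of the 3 arrays against 3 gave p = 0.1, the smallest it can give.

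Cxcr5 stood at 9.14, 8.62 and 9.08 in GFP+ Tfh, against 8.11, 8.61 and 7.91 in GFP- Tfh, with 5.61 ± 0.37 and 5.71 ± 0.43 in CXCR5+PD1- and CXCR5-PD1- cells. Its groups did not overlap by a narrow margin, and the difference of 0.74 ± 0.26 did not pass (limma adjusted p = 0.561). Pdcd1, which encodes PD-1, stood at 9.48, 9.33 and 8.26 against 9.13, 9.43 and 8.75. Here the groups overlapped and the third GFP+ array was the lowest of the 6. The CXCR5+PD1+ titles of the GFP+ arrays thus go with high Cxcr5 and Pdcd1 on all 3. Cd4 lay at 10.33 to 10.52 and at 10.07 to 10.31, without overlap. Cxcr5 RNA did not tell the CXCR5+PD1- and CXCR5-PD1- gates apart, and both their means lay below the array medians (6.34 to 6.45). It therefore does not check the titles of those gates. In sorted bulk samples like these, fewer cells of a type and less RNA per cell cannot be told apart.

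A total of 5 genes passed an adjusted p of 0.05, which is 0.0445% of the 11240 genes tested, and all 5 were lower in GFP+ Tfh. They encode a cytokine receptor chain, a transmembrane protein, a sialyltransferase, a secreted metalloproteinase and a calcineurin subunit. A total of 0 genes passed as higher. At an unadjusted p under 0.05, 614 genes (5.46%) were lower and 214 (1.90%) higher. That balance depends on the scaling and the filter, with 525 lower and 348 higher after cyclic loess, 752 and 635 with no filter on low values, and 452 and 313 without GFP+ replicate 3. The spread in that model comes from all 12 arrays. With 1 weight per group, which allows the GFP+ arrays their wider spread, 3 passed (0.0267%), all lower. With the 6 Tfh arrays alone 0 genes passed and 471 lay under an unadjusted 0.05. The median difference over all genes tested was -0.02, or 0.0055 after cyclic loess and 0.034 with no filter, and 6032 of 11240 genes (53.7%) lay below 0.

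Il2ra stood at 5.84, 6.53 and 5.13 in GFP+ Tfh, against 8.65, 8.65 and 8.35 in GFP- Tfh. No other gene's arrays were so far apart, with 1.82 log2 units between the highest GFP+ and the lowest GFP- array. Il2ra fell by 2.72 ± 0.28 (limma adjusted p = 0.00451, and 0.00788 with 1 weight per group). GFP- Tfh read like the PD1- gates here (8.77 ± 0.16 and 9.09 ± 0.28, SD, n = 3), so it is the GFP+ gate that stood apart.

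Itm2a, a transmembrane protein made in T cells, stood at 5.87, 5.08 and 5.86 in GFP+ Tfh, against 7.91, 7.41 and 8.13 in GFP- Tfh. It fell by 2.22 ± 0.24 (limma adjusted p = 0.00475, and 0.0255 with 1 weight per group). The gates formed a staircase for this gene, since CXCR5+PD1- and CXCR5-PD1- cells lay higher still at 9.20 ± 0.11 and 9.48 ± 0.29.

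St8sia6, which adds sialic acid to glycans, stood at 5.51, 5.94 and 5.74 in GFP+ Tfh, against 7.04, 6.73 and 7.24 in the GFP- cells. It fell by 1.27 ± 0.15 (limma adjusted p = 0.00734), but missed the threshold with 1 weight per group (0.0555). Like Itm2a it was higher in both PD1- gates, at 9.12 ± 0.05 and 9.10 ± 0.11.

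Adamts6, of the family that trims the extracellular matrix, stood at 6.09, 5.95 and 5.71 in GFP+ Tfh. In GFP- Tfh it stood at 7.15, 7.19 and 7.10, a range as tight as any of these genes had. It fell by 1.23 ± 0.13 (limma adjusted p = 0.00451, and 0.0255 with 1 weight per group). As for Il2ra, GFP- Tfh read close to the PD1- gates (7.26 ± 0.13 and 7.47 ± 0.14).

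Ppp3ca, the calcineurin catalytic subunit that activates NFAT factors, stood at 6.36, 6.21 and 6.37 in GFP+ Tfh, against 7.08, 7.22 and 7.02 in GFP- Tfh. It fell by 0.80 ± 0.11 (limma adjusted p = 0.0285), the smallest of the falls, and missed the threshold with 1 weight per group (0.240). Both PD1- gates were higher, at 8.26 ± 0.04 and 8.23 ± 0.13. In GFP+ Tfh the group means of all 5 genes lay below the array medians (6.34 to 6.45), where RMA compresses differences.

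**Figure D1:**
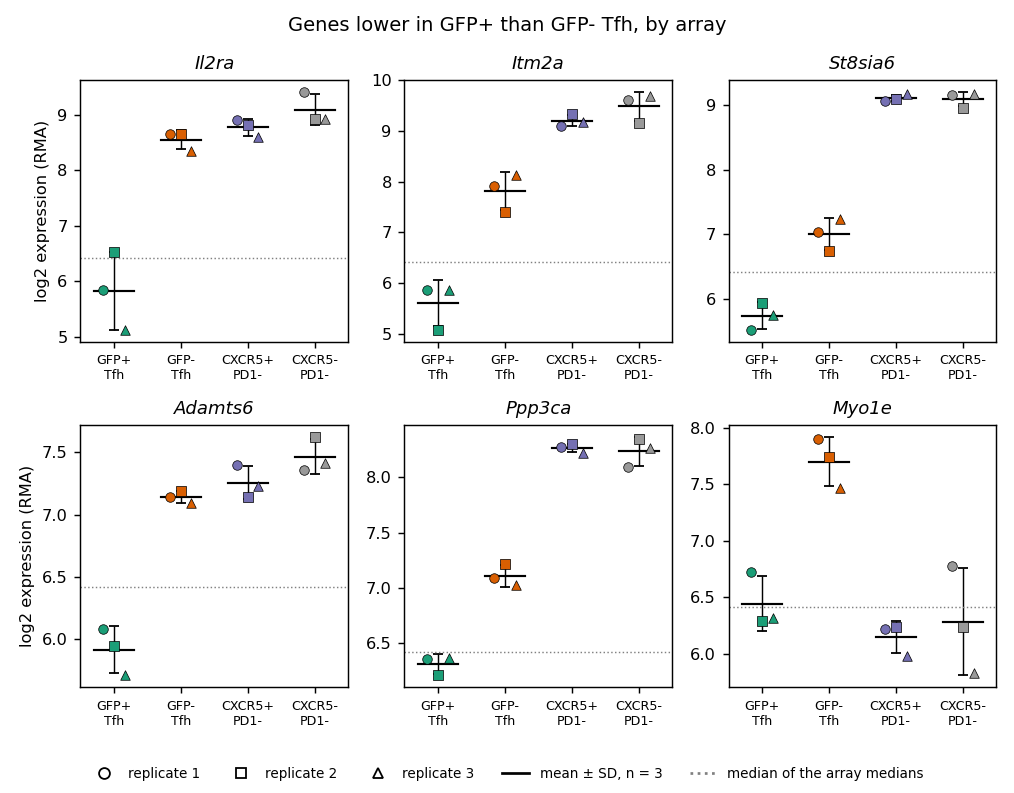
Log2 expression (RMA) of the 5 genes past the threshold and of Myo1e, which passed only with a replicate or sex block, on each of the 12 arrays by gate; symbols mark the replicate, bars the mean ± SD (n = 3) and the dotted line the median of the array medians. The 3 GFP+ arrays lie below the 3 GFP- arrays in each panel, and for Itm2a, St8sia6 and Ppp3ca GFP- Tfh lie between GFP+ Tfh and both PD1- gates.

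The number of genes called depended on single arrays. Without GFP+ replicate 1 a total of 237 genes passed, 15 higher and 222 lower. Without GFP- replicate 1 there were 3, and St8sia6 (0.0700) and Ppp3ca (0.131) were lost. Il2ra, Itm2a and Adamts6 were not lost on leaving out any 1 of the 6 Tfh arrays. The 3 were lost, however, when the 6 Tfh arrays alone set the spread (limma adjusted p = 0.258 for each).

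Groups that do not overlap were far more numerous than genes past the threshold. In 635 genes (5.65% of those tested) every GFP+ array lay below every GFP- array, and in 347 (3.09%) every one lay above. By the exact two-sided permutation test any gene with arrays so separated has p = 0.1, the smallest possible. The share separated in either direction, 8.74%, was not above that value. It was not ranked among the other splits of these 6 arrays, and the GFP+ arrays vary more. The number of separated genes alone therefore decides nothing about a difference between the gates. The distance between the nearest arrays was over 0.5 log2 units in 20 of the lower genes and 2 of the higher ones. After Il2ra and Itm2a the widest lower gaps were those of Il7r (1.06), Adamts6 (1.01), Cd226 (0.84), St8sia6 (0.80), Myo1e (0.75), Rab23 (0.74), Itgae (0.73) and Car2 (0.70). These genes, with those below, were named by the size or rank of this same difference, so their separation is a description.

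**Figure D2:**
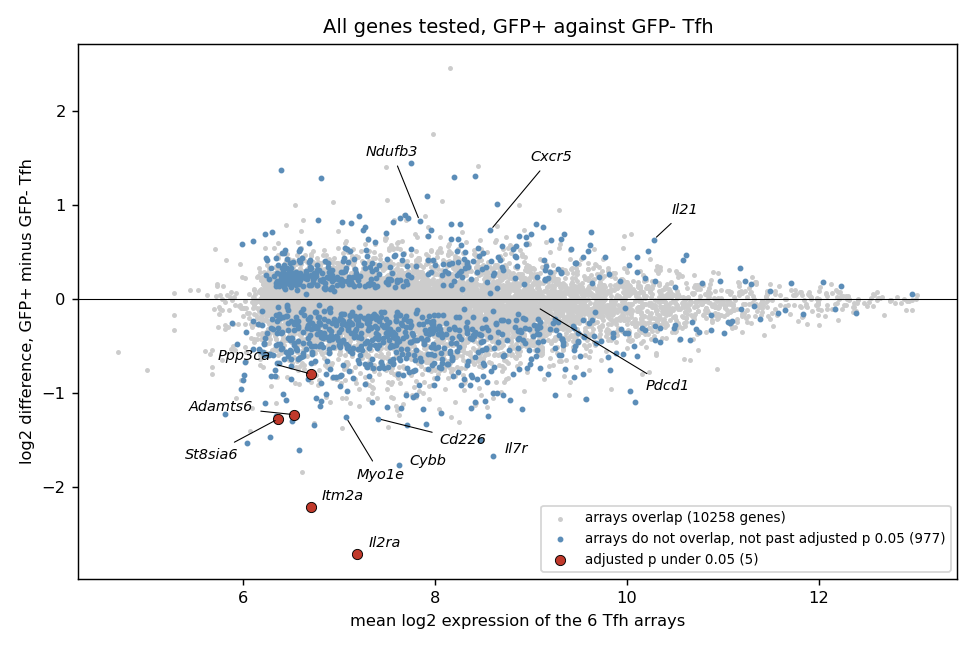
Log2 difference of GFP+ minus GFP- Tfh against mean log2 expression over the 6 Tfh arrays for the 11240 genes tested, with genes past the threshold and those whose arrays do not overlap marked. Of the 5 called genes Il2ra (-2.72) and Itm2a (-2.22) lie lowest, uncalled genes such as Cybb (-1.76) and Il7r (-1.67) lie below the other called ones, and more separated genes lie below 0 (635) than above it (347).

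Among receptors that share the common gamma chain and their JAK and STAT partners, 1 of 16 genes tested fell (Il2ra) and 0 rose. The arrays separated as lower in 3 (Il2ra, Il7r and Jak1) and as higher in 0. Over all genes tested 0.0445% were called, 5.65% separated as lower and 3.09% as higher. The median difference was -0.11 against -0.02 for all genes. Il7r, the interleukin 7 receptor alpha chain that naive and memory T cells live by, stood at 8.21, 8.25 and 6.86 in GFP+ Tfh, against 9.36, 9.32 and 9.66 in GFP- Tfh. Its groups were wide apart, but the third GFP+ array lay well under the other two, and the difference of -1.67 ± 0.30 did not pass (limma adjusted p = 0.147). Without that array it did (0.0230). Both PD1- gates had more of it, at 11.05 ± 0.26 and 11.04 ± 0.05. The kinase gene Jak1 differed by -0.25 ± 0.11. Of the interleukin 6 and 12 receptor list 0 of 10 passed, and Stat3, which carries the interleukin 21 and interleukin 6 signals, was the 1 gene with separated arrays, at 9.48, 9.29 and 8.76 against 9.49, 9.83 and 9.85.

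In the calcium, calcineurin and NFAT list 1 of 26 genes tested fell (Ppp3ca), where 0.0445% of all genes were called. In 4 the arrays were separated, all lower (5.65% of all genes), and the median of the list was -0.09. Beside Ppp3ca these were Nfat5 (-0.44 ± 0.22), a factor of the NFAT family, the calmodulin kinase gene Camk4 (-0.29 ± 0.16) and the calmodulin gene Calm2 (-0.14 ± 0.10). The spans were small except for Ppp3ca. Near the T cell receptor 0 of 30 genes passed, 4 were separated as lower (5.65% of all genes) and 1 as higher (3.09% of all genes). The zeta chain gene Cd247 stood at 8.29, 8.09 and 8.14 against 8.56, 8.38 and 8.57, a difference of -0.33 ± 0.11. Nck1, an adaptor to the actin skeleton, differed by -0.49 ± 0.20 and Dgka, which removes diacylglycerol, by -0.23 ± 0.11. The remaining separated genes of this list were Was as lower and Malt1 as higher. Of 19 Ras and MAP kinase regulators 0 passed. The phosphatase gene Dusp4 was the 1 separated gene, lower by a narrow margin, where 5.65% of all genes were separated as lower.

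Trat1, an adaptor that sits with the T cell receptor and stabilises it at the surface, was outside that narrow band. It stood at 6.55, 5.18 and 5.61 in GFP+ Tfh, against 7.41, 7.10 and 7.64 in GFP- Tfh. The difference was -1.60 ± 0.33 (limma adjusted p = 0.206), and the PD1- gates lay higher at 8.77 ± 0.39 and 8.58 ± 0.37.

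A pair of receptors for the nectin family were among the most separated genes of the CD28 and coinhibitory list. CD226 is activating in T and NK cells, and its gene stood at 6.95, 6.70 and 6.66 in GFP+ Tfh, against 8.24, 7.79 and 8.10 in GFP- Tfh. Cd96, a relative of it, stood at 8.64, 8.08 and 8.02 against 9.73, 9.02 and 9.21. Differences were -1.27 ± 0.26 and -1.07 ± 0.22, and neither passed (limma adjusted p = 0.206 for each). GFP- Tfh read like both PD1- gates for Cd226 (8.28 ± 0.30 and 8.35 ± 0.60) and for Cd96 (9.23 ± 0.07 and 9.30 ± 0.31). The other 10 of the 12 genes tested in that list overlapped between the gates, where 5.65% of all genes were separated as lower.

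The integrin and TNF superfamily lists had 0 genes past the threshold. Of 14 integrin genes 11 lay below 0, where 53.7% of all genes lay, and 3 were separated, all lower (5.65% of all genes). Itgae, the alpha E chain that binds E-cadherin on epithelium, stood at 5.67, 6.16 and 6.38 against 7.59, 7.11 and 7.53, a difference of -1.34 ± 0.28 (limma adjusted p = 0.220). Itga6, the laminin-binding alpha 6 chain, differed by -0.66 ± 0.17 and Itgav by -0.43 ± 0.15. In the TNF superfamily 14 of 18 lay below 0, beside the same 53.7%, and 2 were separated as lower, beside the same 5.65%. Tnfrsf9, which encodes 4-1BB, stood at 7.13, 8.14 and 7.93 against 8.47, 8.24 and 8.51, and Cd27 differed by -0.31 ± 0.12.

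For the SLAM receptors and their adaptor SAP, by which T cells hold on to B cells, the median of 7 genes was -0.45 and 5 lay below 0 (53.7% of all genes). The mean level of the SLAM list was 8.40, 8.01 and 7.54 in GFP+ Tfh and 8.38, 8.16 and 8.29 in GFP- Tfh, so the first GFP+ array was not lower and the third stood apart. The 1 separated gene was Ly9 (5.65% of all genes were separated as lower), at 9.42, 9.34 and 8.57 against 9.64, 9.50 and 9.53. Cd48 stood at 8.11, 7.997 and 5.84 against 8.50, 7.93 and 8.32, so its difference of -0.94 ± 0.48 came mainly from the third GFP+ array. Receptors and enzymes for extracellular ATP and adenosine lay below 0 in 9 of 9 genes (53.7% of all genes), with a median of -0.22. In this list 2 genes were separated as lower (5.65% of all genes). P2ry10 stood at 9.27, 9.63 and 9.51 against 9.67, 10.01 and 9.90, while P2ry14 differed by -0.25 ± 0.20. P2ry14 and Ada, another of the 9, lay below the array medians on all 6 Tfh arrays.

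Genes for sialic acid and N-glycan branching held 1 called gene of 22 (St8sia6), with 4 separated as lower and 1 as higher. The shares over all genes were 0.0445%, 5.65% and 3.09%. Mgat4a, which starts an additional branch on N-glycans, stood at 6.06, 4.93 and 4.85 in GFP+ Tfh, against 7.06, 7.02 and 6.35 in GFP- Tfh. That difference was -1.53 ± 0.30 (limma adjusted p = 0.205), and both PD1- gates lay above, at 8.18 ± 0.34 and 8.20 ± 0.07. Mgat5, which makes a further branch, stood at 8.13, 7.73 and 6.93 against 8.52, 8.54 and 8.27, and St8sia1 was lower as well. Slc35a3, the carrier that brings UDP-N-acetylglucosamine into the Golgi, went the other way at 8.38, 7.996 and 8.41 against 7.37, 7.73 and 7.67 (0.67 ± 0.14, limma adjusted p = 0.222). Its PD1- gates were lower than both Tfh gates, at 7.10 ± 0.12 and 7.17 ± 0.01.

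Metalloproteinases of the ADAM and ADAMTS families had 1 called gene of 13 (Adamts6), beside 0.0445% of all genes. Their inhibitor gene Timp2 was counted with them and was the separated higher gene (3.09% of all genes), at 9.44, 10.01 and 9.52 against 9.39, 9.38 and 9.03. Both Tfh gates had more of it than the PD1- gates (7.90 ± 0.16 and 7.97 ± 0.14). Myosin genes had 2 of 14 separated, both lower (5.65% of all genes). Myo1e, a single-headed myosin that links membrane to actin, stood at 6.72, 6.29 and 6.32 against 7.90, 7.74 and 7.47. It differed by -1.26 ± 0.22 (limma adjusted p = 0.138), and GFP- Tfh were the gate that stood apart, since the PD1- gates lay at 6.15 ± 0.14 and 6.29 ± 0.47. Since all arrays outside GFP- Tfh lay near the array median, Myo1e passed the filter on low values mainly through the gate where it was high.

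Rab GTPases, which direct vesicles, had 1 of 30 separated each way and 0 called, where 5.65% of all genes were separated as lower and 3.09% as higher. Rab23 stood at 6.02, 5.68 and 5.89 against 6.76, 7.66 and 7.05 (-1.30 ± 0.22, limma adjusted p = 0.137), and Rab4b differed by 0.36 ± 0.12. Penk, the gene for the opioid peptide precursor proenkephalin, stood at 8.37, 7.42 and 7.38 against 9.41, 9.49 and 8.75. Both Tfh gates lay above the PD1- gates for Penk (6.52 ± 0.68 and 6.82 ± 0.38), and GFP- Tfh had the most, with a difference of -1.50 ± 0.36 (limma adjusted p = 0.379). Cybb, a subunit of the phagocyte NADPH oxidase, was highest in GFP- Tfh too, at 8.62, 8.52 and 8.37. Its GFP+ arrays ran from 7.95 through 6.95 to 5.33, so the size of its difference (-1.76 ± 0.64) depended on the array.

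The lists of TGF-beta genes, of TCF, KLF and FOXO factors and of brakes on activation had 0 members past the threshold and 2 separated members each, where 8.74% of all genes were separated in either direction. In the TGF-beta list 13 of 18 lay below 0 (53.7% of all genes) and Skil, a repressor of SMAD signalling, stood at 9.31, 9.10 and 7.94 against 9.55, 9.69 and 9.51. The list of TCF, KLF and FOXO factors had a median of -0.03 over 22 genes. Its 2 separated genes were Ctnnb1, which encodes beta-catenin (8.53, 8.08 and 7.92 against 8.70, 8.71 and 8.79), and the repressor gene Bach2 (-0.35 ± 0.19). Of 10 RNA-binding and ubiquitin brakes on T cell activation 8 lay below 0 (53.7% of all genes), with Peli1 (-0.28 ± 0.12) and Zc3h12d (-0.30 ± 0.15) separated. Epas1, which encodes the hypoxia factor HIF-2 alpha, stood at 7.22, 7.78 and 7.14 against 8.09, 8.57 and 8.20, and did not pass (-0.91 ± 0.20, limma adjusted p = 0.273). With the replicate numbers as a block 6 genes passed (0.0534% of those tested), all lower, and Epas1 and Myo1e were among them (0.0182 for each).

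In the mitochondrial ribosome and translation list, 7 of 82 genes were separated as higher and 0 as lower (3.09% of all genes were separated as higher), while the median of the list was 0.00 and 0 passed. Mrps21, of the small subunit, stood at 9.88, 9.48 and 9.17 in GFP+ Tfh, against 8.90, 8.996 and 8.32 in GFP- Tfh. Mtif2, the initiation factor that brings the first tRNA, stood at 8.85, 8.86 and 8.96 against 8.59, 8.44 and 8.38, and Mrpl14 differed by 0.43 ± 0.14. The rest of the list lay on both sides of 0, with 42 genes above and 40 below.

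Respiratory complex I, the entry point of electrons from NADH, had 2 of 34 genes separated as higher (3.09% of all genes) and 0 as lower (5.65%). In 21 of the 34 the difference lay below 0 (53.7% of all genes). Ndufb3, an accessory subunit, had the tightest GFP+ values of the genes named, 8.24, 8.26 and 8.27, against 7.52, 7.45 and 7.30 in GFP- Tfh. With 0.83 ± 0.14 it had the smallest p of all higher genes and did not pass (limma adjusted p = 0.136). The PD1- gates read like GFP- Tfh, at 7.30 ± 0.28 and 7.28 ± 0.12. Ndufa8 differed by 0.34 ± 0.12. No other subunit was separated, so the high Ndufb3 values were not shared by the complex as measured.

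The anaphase-promoting complex, which sends mitotic proteins to the proteasome, lay below 0 in 13 of 16 genes (53.7% of all genes) with a median of -0.17. Its mean level was 7.87, 7.85 and 7.496 in GFP+ Tfh and 7.99, 8.04 and 7.86 in GFP- Tfh, with the third GFP+ array lowest. Anapc1, its scaffold subunit, stood at 8.08, 7.96 and 7.93 against 8.59, 8.71 and 8.75 and came near the threshold (-0.70 ± 0.11, limma adjusted p = 0.0726). The activator gene Fzr1 was the other separated member. In the SUMO pathway Senp5, a protease that removes SUMO, was separated as higher at 7.88, 7.95 and 8.22 against 7.56, 7.45 and 7.44 (0.53 ± 0.11). Sumo2 was separated as lower (-0.42 ± 0.12), although the other 3 of its 4 probe sets gave -0.02 to -0.38. Endoplasmic reticulum folding genes had 2 of 30 separated as higher, the stress genes Trib3 (0.27 ± 0.14) and Ddit3, and the chaperone gene Canx as lower (-0.21 ± 0.10). For these 3 lists the shares over all genes were 3.09% separated as higher and 5.65% as lower.

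In the sterol and fatty acid list Hmgcs1, an early enzyme of cholesterol synthesis, was the separated gene of 20, at 7.54, 6.95 and 7.44 against 8.08, 8.03 and 7.76. The lysosomal protease gene Ctsl (0.42 ± 0.20) was the 1 of 16 in its list. The BCL2 family (15 genes) and the interleukin 1 receptor and caspase list (9 genes) had 0 separated genes, where 8.74% of all genes were separated in either direction. Bak1, which opens the mitochondrial outer membrane in apoptosis, stood at 7.80, 8.50 and 8.84 against 7.94, 7.63 and 7.58. Il18r1 ran from 8.72 through 7.82 to 6.25 in GFP+ Tfh and was at 9.06, 8.93 and 8.72 in GFP- Tfh, so both touched across the gates.

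**Figure D3:**
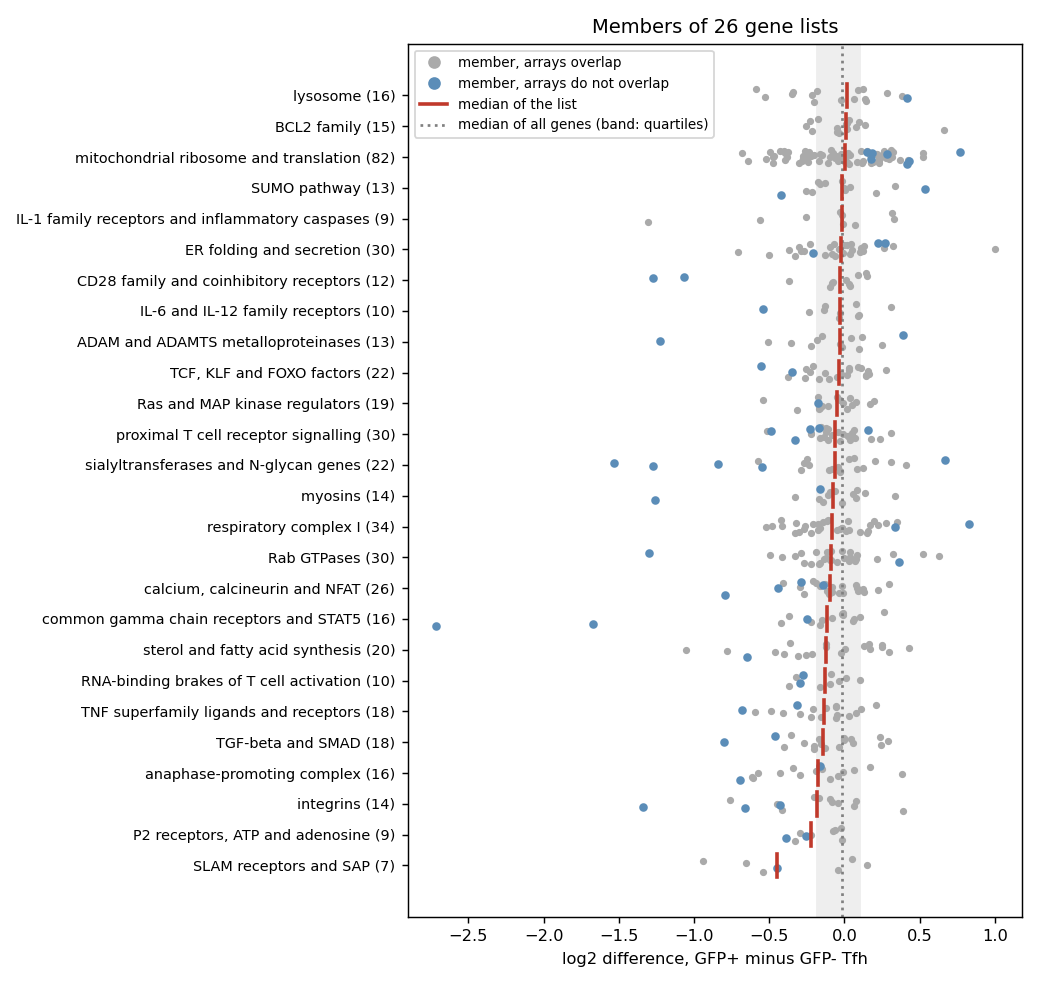
Log2 difference of GFP+ minus GFP- Tfh for each tested member of 26 gene lists (number tested in brackets), ordered by list median; blue points are genes whose arrays do not overlap, red bars are list medians and the grey band holds the middle quartiles of all genes tested. List medians run from -0.45 (SLAM receptors and SAP) to 0.02 (lysosome) beside a median of all genes at -0.02, and single genes such as Il2ra at -2.72 lie far outside their own list.

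Lower genes that belong to none of these lists were spread over many functions. Pcbd2, a dehydratase and transcription cofactor, stood at 10.004, 9.58 and 9.04 against 10.55, 10.58 and 10.79. Zdhhc13, a palmitoyl transferase, stood at 8.45, 7.79 and 7.70 against 9.11, 8.92 and 9.15. Arl2bp, a partner of the GTPase ARL2, stood at 7.53, 6.92 and 7.42 against 8.81, 8.37 and 8.20. These 3 differed by -1.10 ± 0.20, -1.08 ± 0.20 and -1.17 ± 0.22, each with a limma adjusted p of 0.147. Htra2, a mitochondrial protease, differed by -0.81 ± 0.16, Lactb by -0.85 ± 0.16 and Neb by -0.58 ± 0.11. Car2, a carbonic anhydrase gene, stood at 5.54, 6.02 and 6.16 against 6.86, 7.01 and 6.88. Flicr, a noncoding RNA beside Foxp3, had a wide range in GFP- Tfh (7.14, 6.07 and 7.81) and lay at 5.30, 5.58 and 5.76 in GFP+ Tfh.

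None of the genes that read higher passed. Minpp1, an inositol phosphate phosphatase of the endoplasmic reticulum, stood at 8.22, 8.12 and 7.84 against 7.32, 7.27 and 7.01 (0.86 ± 0.16, limma adjusted p = 0.147). A second Minpp1 probe set went the opposite way, at 6.62, 6.70 and 6.53 against 7.02, 7.05 and 6.69, so the gene's direction is not settled. Mrs2, a mitochondrial magnesium channel gene, likewise read 1.01 on its brighter probe set and -0.13 on the other. Ppp1r14b agreed over its probe sets, with 0.72 and 1.06.

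Ccdc90b (1.29 ± 0.29), Dera (0.71 ± 0.16), Armc7 (0.74 ± 0.18), Dusp22 (0.54 ± 0.14), Pcyox1 (0.84 ± 0.23) and Ccdc28b (0.82 ± 0.23) were further separated genes of small p. Ccdc90b and Pcyox1 passed the filter on low values mainly through the GFP+ arrays, where they were high. Ost4, a small subunit of the oligosaccharyl transferase, stood at 8.38, 8.28 and 8.74 against 7.04, 7.95 and 7.12. For several of the largest differences the third GFP+ array lay far above the other GFP+ arrays. Dcps, the scavenger decapping enzyme, stood at 8.10, 8.53 and 9.91 against 7.44, 7.57 and 7.64. Nxpe3 stood at 8.36, 8.19 and 10.66 against 8.19, 7.46 and 7.63, and Mex3b at 7.504, 7.45 and 9.45 against 7.37, 7.39 and 6.97. Creg1 showed the same order of arrays, 6.94, 7.49 and 8.52, against 6.71 to 6.84 in GFP- Tfh.

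**Figure D4:**
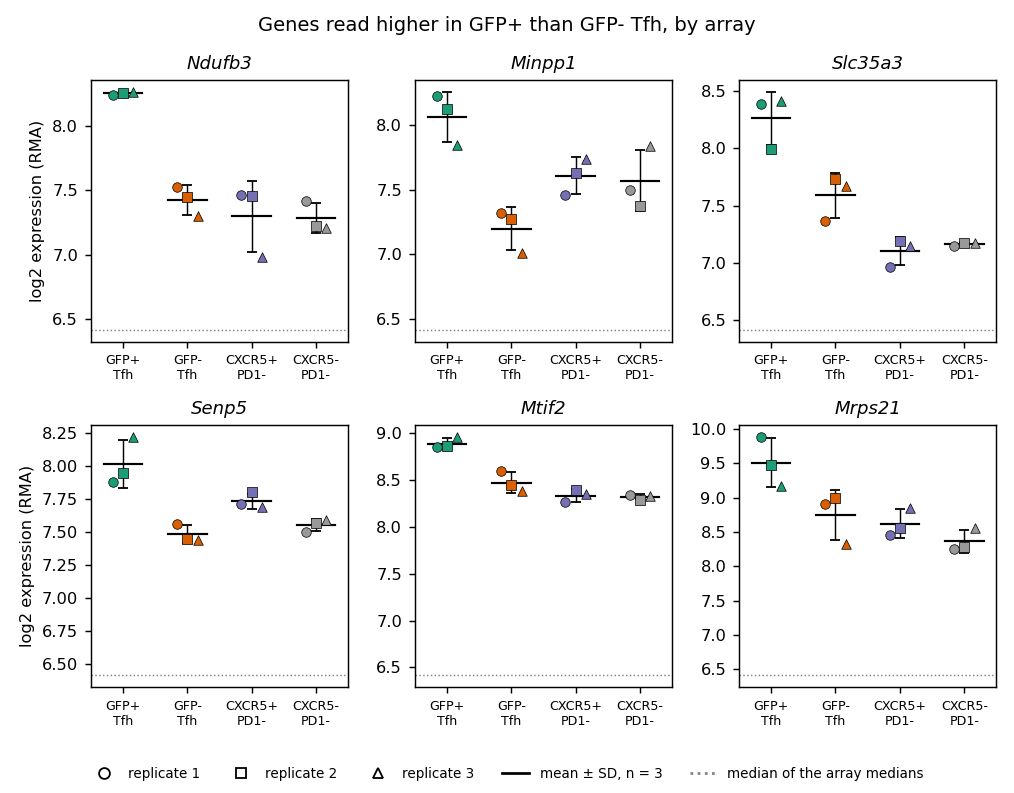
Log2 expression (RMA) by array and gate for genes that read higher in GFP+ Tfh; symbols mark the replicate and bars the mean ± SD (n = 3). The GFP+ values of Ndufb3 lie within 8.24 to 8.27, while those of Mrps21 run from 9.17 to 9.88, and none of the genes shown passed the threshold.

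Genes that crossed the array median as a group were rare. In 29 genes (0.258%) all 3 GFP+ arrays lay above the median of their array and all 3 GFP- arrays at or below it, and in 22 (0.196%) the reverse held. Kcnh2, a potassium channel gene, stood at 6.46, 6.74 and 6.80 against 6.10, 6.18 and 6.44, and Yif1b, of endoplasmic reticulum to Golgi transport, at 6.50, 6.97 and 6.49 against 5.96, 6.14 and 6.38. Those spans are narrow. Among the crossing genes on the lower side Itm2a, St8sia6, Adamts6, Rab23 and Car2 had differences of -1.01 or beyond. Genes that pass the filter on low values only through their brighter gate had to differ.

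The 20 lower and 19 higher genes named for small p or large separation were also placed against the 6 arrays of the PD1- gates, as a description. Of the 20 lower ones, 7 were lower in both Tfh gates than in all 6 PD1- arrays, with GFP+ Tfh lowest (Itm2a, St8sia6, Ppp3ca, Il7r, Neb, Trat1 and Mgat4a). In another 7 GFP- Tfh overlapped the PD1- arrays and only GFP+ Tfh lay below them all (Il2ra, Adamts6, Anapc1, Rab23, Pcbd2, Arl2bp and Flicr). In 4 genes GFP- Tfh lay above every PD1- array and GFP+ Tfh overlapped them (Myo1e, Zdhhc13, Htra2 and Cybb). Penk lay above in both, and Lactb overlapped in both. Of the 19 higher genes, 11 had GFP- Tfh overlapping the PD1- arrays and GFP+ Tfh above them all, and 5 overlapped in both. Among the 11 are Ccdc90b and Pcyox1, which passed the filter on low values mainly through GFP+ arrays. Myo1e, among the 4 with GFP- Tfh above every PD1- array, passed it mainly through GFP- Tfh. Shares over all genes tested were not counted for these positions, and the genes were chosen by how far the Tfh gates differed. The counts therefore describe the named genes only.

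Il2ra is also a marker of regulatory T cells. Of 12 markers on that list, all tested, 1 fell (Il2ra, where 0.0445% of all genes were called) and 3 lay above 0. A total of 7 had separated arrays, all lower, against 5.65% of all genes. They were Il2ra, Itgae, Il10, Foxp3, Capg, Lrrc32 and Nrp1. The mean level of the list was 7.69 to 7.91 in GFP+ arrays and 8.41 to 8.46 in GFP- arrays, and the median difference was -0.46. Foxp3, the factor that defines regulatory T cells, stood at 6.73, 7.09 and 7.27 against 7.84, 7.51 and 7.65 (-0.64 ± 0.18, limma adjusted p = 0.416). All 3 GFP+ arrays lay above the array medians. Il10 stood at 6.87, 7.39 and 6.13 against 7.92, 8.29 and 7.47, Capg at 7.02, 6.62 and 6.82 against 7.57, 7.83 and 7.77, and Lrrc32 differed by -0.46 ± 0.18. The part of such cells in the fall of Il2ra, or in that of the other called genes, was not tested.

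Markers of other cell types were mostly under the filter. Their separated members stand beside the 8.74% of all genes separated in either direction. Of 11 B cell genes on the array 4 were tested, and Pax5 was separated as higher. Pax5 passed the filter on low values only through its GFP+ arrays (6.57, 6.55 and 6.59), so it had to differ. Mean levels of the B cell list were 5.37 to 5.71 in GFP+ and 5.40 to 5.58 in GFP- arrays. Of the germinal centre B and plasma cell list 9 genes were on the array and 2 were tested, with levels of 5.43 to 5.59 against 5.31 to 5.41. The 13 myeloid genes, with 6 tested, lay at 6.002 to 6.13 against 5.89 to 6.01. Lyz2, the macrophage lysozyme gene, stood at 7.33, 7.64 and 6.27 against 5.56, 5.83 and 5.72, and its difference of 1.38 ± 0.38 did not pass (limma adjusted p = 0.416). Lyz2 passed the filter on low values mainly through its GFP+ arrays. Another myeloid marker, Cst3, differed by -0.59 ± 0.39 and Fcer1g by -0.12 ± 0.14. The 13 epithelial genes, of which 3 were tested, lay at 5.50 to 5.80 against 5.52 to 5.66, and Lgals4 was separated as lower (-0.43 ± 0.14). Of 8 CD8, NK and gamma delta T cell genes 4 were tested, with mean levels of 5.47 to 5.66 against 5.57 to 5.62, and Gzma was separated as lower (-0.89 ± 0.52). The 7 CD4 T cell markers, all tested, lay at 10.97 to 11.16 and 11.06 to 11.08. Their part in any result was not tested.

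The GFP+ arrays were less alike than the arrays of any other gate, which bears on all of the above. The root mean square deviation from the group mean was 0.342, 0.287 and 0.405 for the GFP+ arrays and 0.163 to 0.204 for the other 9 arrays. A gene's SD was higher in GFP+ than in GFP- Tfh in 8441 of 11240 genes (75.1%), with a median SD of 0.261 against 0.155. SDs over 1 were found for 329 genes in GFP+ Tfh and for 16 in GFP- Tfh.

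Each GFP+ array departed in its own way. The third lay more than 1 log2 unit below both others in 533 genes (4.74%) and above both in 114. The first lay above both others in 217 genes and below in 11. The second gave 55 and 79. Within GFP- Tfh no array exceeded 34 such genes in either direction. The 533 genes low on the third GFP+ array were well expressed. Their median level in GFP- Tfh was 8.24, against 7.39 for all genes tested. In 19 of the 533 all 3 GFP+ arrays lay below all 3 GFP- arrays, beside 635 of the 11240 genes tested (5.65%).

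The most variable genes of GFP+ Tfh show these departures directly. Atxn1 stood at 11.63, 11.59 and 6.04, against 10.49, 10.74 and 10.43 in GFP- Tfh. A second, dimmer Atxn1 probe set stood at 7.25, 7.65 and 6.41 against 7.80, 7.42 and 7.30. There the third GFP+ array was also lowest, but by much less. Gins4, of the replication helicase, stood at 9.28, 8.29 and 5.07 against 8.72, 9.33 and 8.34, and the proteasome assembly gene Psmd10 at 10.25, 7.98 and 5.40 against 9.36, 9.01 and 8.57. Ppp4r2, a phosphatase subunit, was low on the second array and high on the third, at 8.19, 5.40 and 11.47 against 8.98, 8.71 and 9.57. Il4, a cytokine that Tfh cells make, stood at 9.90, 10.36 and 6.84 against 10.41, 10.18 and 9.69. Its difference of -1.06 ± 0.69 therefore rests on the third GFP+ array, and without it the difference was 0.034. The weight each array would get from its own spread was 0.266, 1.87 and 0.226 for the GFP+ arrays. The model with these weights called 95 genes, 14 higher and 81 lower, and its GFP+ values rest mainly on replicate 2.

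**Figure D5:**
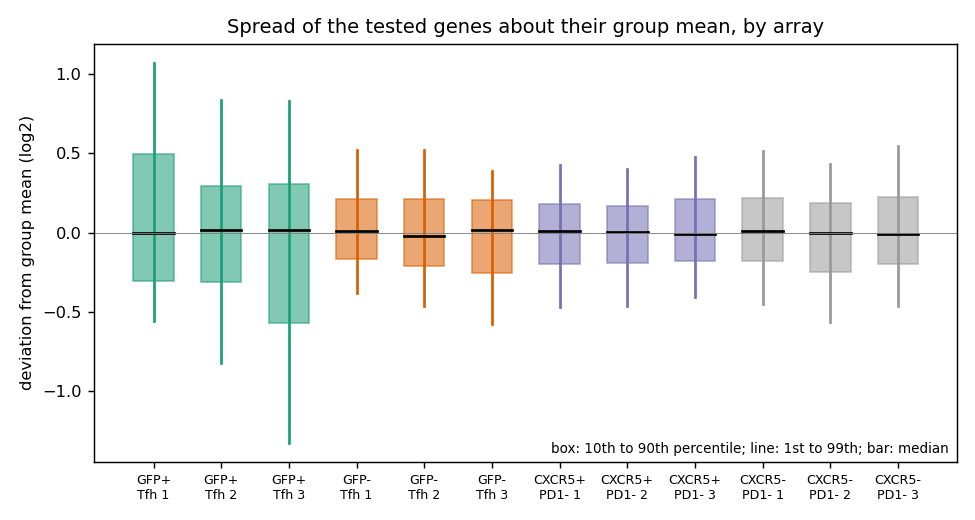
Spread of the arrays around their group mean over the 11240 genes tested. The 3 GFP+ arrays deviate by 0.287 to 0.405 (root mean square, log2), each more than any of the other 9 arrays (0.163 to 0.204), and the third has the widest tail toward low values.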

How the data were processed

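RNA of 12 sorted CD4+ samples was hybridised to Affymetrix mouse gene arrays. The authors deposited log2 values for 34760 probe sets. The submitters' processing notes name RMA and the oligo package. RMA equalises the arrays' distributions and compresses low signals. A genome build is not named in those sources. All columns were mapped by title, and 0 were left unmapped.

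Of the probe sets 21640 had 1 symbol, 1321 several and 11799 none here. Names come from the platform annotation, updated through RefSeq (21553 by gene identifier, 87 kept an older symbol). Of a gene's probe sets the one with the highest mean was used (954 genes had several). Genes above the array median on at least 3 arrays were tested, and 8697 were left out. Limma 3.58.1 in R 4.3.3 (lmFit, eBayes) was fitted to all 4 groups, with Benjamini-Hochberg adjustment at 0.05 over all genes tested. It was tested on simulated data. Precision is limited by the small number of arrays.

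The members, the 37 gene lists and the naming rule were chosen with earlier results of these data known. Named genes are the gate markers, genes past the threshold, the 15 smallest p and 8 largest differences each way among separated genes, up to 4 members per list, the 10 most variable in GFP+ Tfh and genes crossing the array median. Calm2, Was, Malt1, Dusp4, St8sia1, Fzr1, Ddit3, Capg, Nrp1 and Pax5 were named after their values were seen. Other settings were tried for the low-value filter, variance moderation, array weights, between-array normalisation, the groups modelled, blocks and the choice of probe set, and each Tfh array was omitted once.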

Additional observations from a re-analysis of the deposited data

Results flagged for a closer look

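Among the 7008 probe sets tested that name no gene or several, which the comparison of genes does not use, 2 passed in a limma fit over all 19211 probe sets that passed the filter. Both were lower in GFP+ Tfh. Probe set 10344421, with no gene in the annotation, stood at 5.23, 6.01 and 5.70 in GFP+ and at 8.61, 9.04 and 8.91 in GFP- Tfh. Its difference was -3.21 ± 0.29 (limma adjusted p = 0.0105), larger than that of any gene called. Probe set 10343875, also without a gene, stood at 6.79, 6.97 and 7.10 against 8.82, 8.78 and 9.49, a difference of -2.08 ± 0.25 (limma adjusted p = 0.0244). What these probe sets measure was not tested.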

How the results depend on the processing

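The count of 5 genes called (limma) became 3 with 1 weight per group, 95 with a weight per array, 2 with the replicate block and 1 weight per group, and 0 with the 6 Tfh arrays alone, with these and the replicate block, or with the male arrays (471, 637 and 616 genes at an unadjusted p under 0.05). Leaving out each Tfh array gave 3 to 237. Over 19 alternatives, 1736 of 1829 values of named genes kept direction and side of the threshold, 30 lost the call, 53 gained it and 10 changed sign. Within GFP+ Tfh the weights per array rest mainly on replicate 2. With a weight per array the sign turned for Pdcd1 (0.10) and Atxn1 (0.51), and in males for Pdcd1 (0.12) and Atxn1 (0.996). Leaving out 1 array turned the log2 difference of Pdcd1 (-0.31 to 0.30; 0.30 without GFP+ replicate 3, 0.08 without GFP- replicate 2), the log2 difference of Il4 (-1.72 to 0.034), the log2 difference of Atxn1 (-1.74 to 1.06) and the log2 difference of Psmd10 (-2.29 to 0.14), the last 3 without GFP+ replicate 3, and the log2 difference of Ppp4r2 (-2.29 to 0.74) without GFP+ replicate 2. The causes were not tested.

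The replicate block gave 6 genes. Deviations of same-numbered Tfh arrays correlated at 0.253, 0.0411 and 0.283, the second below 0.1, so the numbers were not taken as pairs. GFP- replicate 2 correlated best with GFP+ replicate 1 (0.151), and every other Tfh array with its own number. With sex-linked genes left out, GFP+ replicate 2 correlated better with GFP- replicate 3 (0.0443) than with its own number (0.0252). With the block Myo1e and Epas1 passed and Ppp3ca did not (0.0563). Limma adjusted p over the alternatives ran from 0.000491 to 0.258 for Il2ra and 0.611 to 1 for Il21. Genes near the array median have compressed differences.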
